A study of Rattus norvegicus with 2 samples.

Results

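The collagen, laminin and integrin genes were taken as every gene whose transcript is the named target of at least 1 gene probe on the array, with the symbol of a collagen alpha chain, a laminin alpha, beta or gamma chain, or an integrin alpha or beta subunit. This gave 42 of the 15159 genes that could be named, comprising 18 collagens, 7 laminin chains, 10 integrin alpha and 7 integrin beta subunits, on 56 probes. RefSeq holds 81 such genes, and the other 39, among them Itgav, Itga3, Itga6, Lama3 and Col17a1, were not analysed here because no probe could be named for them. The series compared RMT-1 cells (clone E4), a rat mammary tumour line grown in culture, transiently transfected with an siRNA against Pla2g4c with the same cells given a negative control siRNA. Pla2g4c belongs to the cytosolic phospholipases A2, which release fatty acids from membrane phospholipids, and the series title names apoptosis as its subject. Total RNA of each group was labelled with Cy3 and read on 1 one-colour array per group, so that no difference has a replicate behind it and none was tested. The labels used here state no time after transfection. The RNA came from a single clone, so that differences between clones are outside the data.

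Epithelial cells rest on a basement membrane built from laminin trimers and a network of type IV collagen, to which they bind through integrins, heterodimers of an alpha and a beta subunit. In stratified and basal epithelium the integrin alpha6beta4 binds laminin and anchors keratin filaments at hemidesmosomes. In the mammary gland these contacts are known to support the survival and the polarity of the epithelium, and integrins with the beta1 subunit also bind fibrillar collagens and fibronectin.

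Levels are log2 of the processed signal relative to the 75th percentile of the same array, and differences are the level in Pla2g4c siRNA cells minus that in control cells. The ± is an error of that difference, computed here from the scanner software's errors of the spots on both arrays and called the software's error. It averages over spots, so it does not shrink with their number, and it holds no biological spread. A gene is called measured where it had a probe whose usable spots all passed the software's background flag on both arrays, and dim otherwise. Levels of different probes cannot be set against each other, so values are compared only between the arrays. No probe could be named for Pla2g4c, and the knockdown was therefore not checked here. The 75th percentile was 1105 intensity units in Pla2g4c siRNA cells and 852 in control cells, and values in intensity units are given unscaled. Of 58717 gene spots, 63.1% passed the background flag in Pla2g4c siRNA cells, 61.9% did in control cells, and 0 were saturated.

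Of the 42 genes 21 were measured. Among these the integrin subunit Itgb6 was at least 2-fold higher in Pla2g4c siRNA cells, and no other of the 21 reached 2-fold in either direction. Over all 9026 named measured genes, the share past 2-fold was 2.91% in the higher direction and 3.05% in the lower, so that 1 higher and 0 lower among 21 genes is close to that background. The 21 differences had a median of 0.03, with 11 above 0 and 10 below, against a median of -0.01 over all genes, of which 49.0% were above 0. The members nearest to the 2-fold limit without reaching it were Col18a1 at -0.81 and Col11a2 at 0.80. By family, the 3 measured integrin alpha subunits had a median of 0.48 and were all above 0, the 4 integrin beta subunits had 0.09, the 5 laminin chains -0.15 and the 9 collagens -0.26. Under scaling to 7 spike-in RNAs the median of all genes moved to 0.54, and the 4 medians were then 1.03, 0.64, 0.40 and 0.29, all above 0, so that every direction given here is relative to the bulk of the genes.

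**Figure D1:**
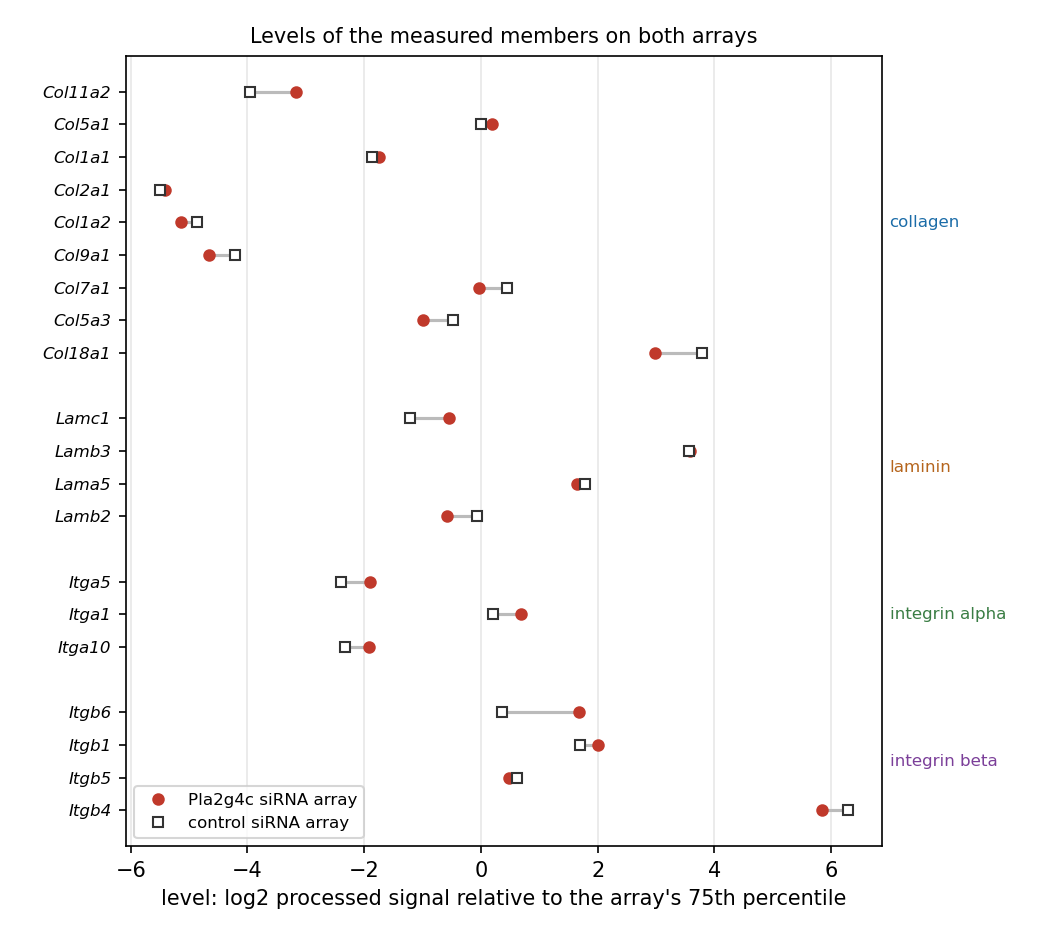
Level of 20 of the 21 measured genes (log2 processed signal relative to the array's 75th percentile, horizontal axis) in Pla2g4c siRNA cells (filled circles) and control cells (open squares), 1 array per group, with genes ordered by family and difference. The widest gap between the arrays is that of Itgb6, at 1.67 in Pla2g4c siRNA cells and 0.36 in control cells, and positions can be compared only within a row.

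**Figure D2:**
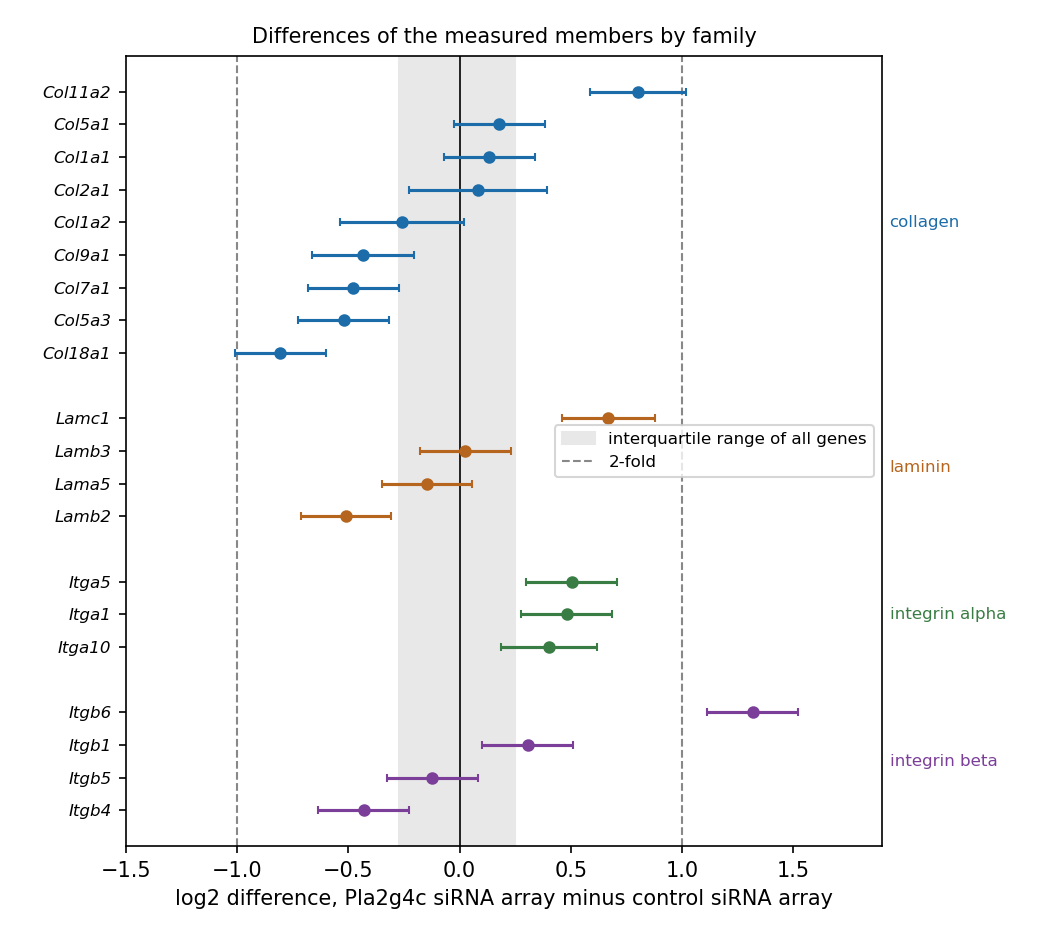
Difference of 20 of the 21 measured genes (Pla2g4c siRNA cells minus control cells, log2 scale, horizontal axis), with bars for the scanner software's error, the interquartile range of all 9026 genes shaded and 2-fold as dashed lines. Itgb6 at 1.32 lies past the upper line, and Col18a1 at -0.81 and Col11a2 at 0.80 are the members nearest to the lines among the rest.

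The 250 bases before the start of transcription were read for the measured genes from RefSeq (GRCr8 build), which gave a promoter for 16 of the 21. Those of Itgb6, the gene past 2-fold, and of its fellow beta subunit Itgb1, together with those of Lamc1 and Col18a1, the highest laminin chain and the lowest collagen, are shown 5′ to 3′ on the strand of the gene. Capitals mark the GC box, searched as GGGCGG on both strands, which may overlap. A match of letters is a description and no binding site.
Itgb6 (chr3:65530334-65530583, minus strand): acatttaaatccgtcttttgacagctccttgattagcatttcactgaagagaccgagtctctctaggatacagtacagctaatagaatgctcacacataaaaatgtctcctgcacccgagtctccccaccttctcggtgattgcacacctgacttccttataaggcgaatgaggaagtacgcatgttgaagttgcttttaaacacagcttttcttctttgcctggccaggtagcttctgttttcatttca
Itgb1 (chr19:73602027-73602276, plus strand): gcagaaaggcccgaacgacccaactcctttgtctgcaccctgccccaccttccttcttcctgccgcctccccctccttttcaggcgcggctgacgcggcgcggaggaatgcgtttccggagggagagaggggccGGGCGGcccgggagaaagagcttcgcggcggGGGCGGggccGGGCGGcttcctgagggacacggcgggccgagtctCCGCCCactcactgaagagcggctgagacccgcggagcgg
Lamc1 (chr13:68051987-68052236, minus strand): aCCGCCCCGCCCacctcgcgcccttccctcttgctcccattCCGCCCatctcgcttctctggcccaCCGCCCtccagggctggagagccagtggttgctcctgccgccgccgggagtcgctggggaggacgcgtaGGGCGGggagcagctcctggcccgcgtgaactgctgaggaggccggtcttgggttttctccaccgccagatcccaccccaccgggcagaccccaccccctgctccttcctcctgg
Col18a1 (chr20:11473395-11473644, plus strand): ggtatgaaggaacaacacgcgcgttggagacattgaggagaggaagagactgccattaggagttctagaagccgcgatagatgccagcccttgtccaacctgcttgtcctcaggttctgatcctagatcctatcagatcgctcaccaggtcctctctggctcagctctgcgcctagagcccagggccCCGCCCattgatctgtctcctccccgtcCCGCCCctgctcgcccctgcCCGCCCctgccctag
The Itgb6 promoter had a GC content of 43.2% and held no GC box, and that of Itgb1 had 71.2% and 4 GC boxes. The Lamc1 promoter had 71.2% and 5, 2 of which overlap by a base, and the Col18a1 promoter 60.4% and 3. A GC box stood in 9 of the 16 promoters and in 30.5% of all 33469 promoters of the same length. The TATA box, TATAAA on both strands, stood in 1 of the 16, that of Col1a2, and in 12.9% of all. The AP-1 motif, TGANTCA, stood in none of the 16 and in 6.34% of all. GC boxes thus occurred in the promoter of a higher laminin chain and of a lower collagen alike.

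Itgb6, whose promoter held no GC box, encodes the beta6 subunit, which pairs with alphav in epithelial cells, binds fibronectin and activates latent TGF-beta. Its level was 1.67 in Pla2g4c siRNA cells and 0.36 in control cells, a difference of 1.32 ± 0.20 or 2.49-fold, rank 151 from the highest of 9026 genes. It rested on 1 probe printed many times. The 9 usable spots read between 3442 and 3589 intensity units with a median of 3536 in Pla2g4c siRNA cells, and between 1051 and 1115 with a median of 1088 in control cells. No spot of one array reached the range of the other, and the spots of each array had an SD of 0.02 and 0.03 on the log2 scale, the spots being technical repeats of 1 RNA sample. Itgb6 stayed at least 2-fold higher under all 10 processing alternatives, between 1.26 and 1.87.

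Itgb1 encodes the beta1 subunit shared by the collagen-binding integrins and by many of the fibronectin- and laminin-binding ones. Its level was 2.01 in Pla2g4c siRNA cells and 1.71 in control cells, a difference of 0.31 ± 0.20. Both of its probes gave nearly the same difference, 0.31 over 10 spots and 0.30 over 2 spots. In neither probe did the spots of the arrays overlap. Itgb5, whose product pairs with alphav as a vitronectin receptor, differed by -0.12 ± 0.20, with a level of 0.49 in Pla2g4c siRNA cells and 0.61 in control cells, and its 2 probes gave -0.22 and -0.03.

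Itgb4 encodes the beta4 subunit of the hemidesmosome, which has a long cytoplasmic tail that binds plectin. Its level was 5.85 in Pla2g4c siRNA cells and 6.28 in control cells, a difference of -0.43 ± 0.20. The probe read 63894 intensity units in Pla2g4c siRNA cells and 66417 in control cells, and its 2 spots per array did not overlap between the arrays after scaling. The difference was -0.10 under cyclic loess and 0.07 under quantile normalization, both of which fit the signal range of the arrays to each other, so its direction depends on the scaling.

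The 3 measured alpha subunits all pair with beta1. Itga1, a receptor for collagens and laminins, had a level of 0.69 in Pla2g4c siRNA cells and 0.21 in control cells, a difference of 0.48 ± 0.20. Its 8 usable spots ranged from 1722 to 1869 intensity units with a median of 1777 in Pla2g4c siRNA cells, and from 939 to 1042 with a median of 993 in control cells, without overlap. Itga5, the alpha subunit of the classical fibronectin receptor, differed by 0.50 ± 0.21, with a level of -1.89 in Pla2g4c siRNA cells and -2.40 in control cells. Itga10, a collagen receptor best known from cartilage, had a mean difference of 0.40 ± 0.21 over 2 probes that did not give the same value. One of them gave 0.72 ± 0.20, with separated spots, and the other gave 0.08 ± 0.22 with overlapping spots.

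**Figure D3:**
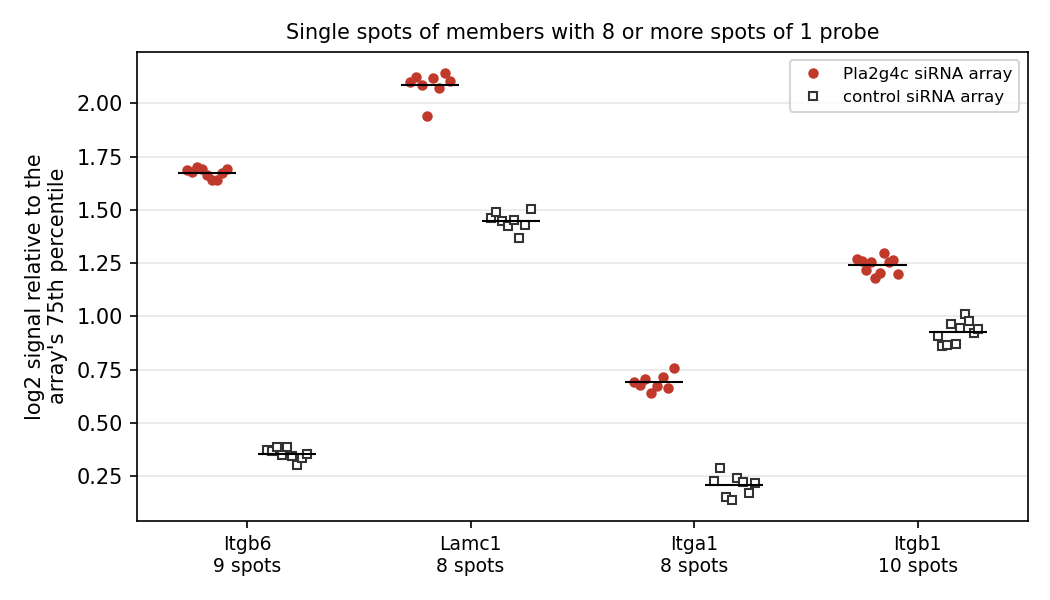
Single usable spots (log2 signal relative to the array's 75th percentile, vertical axis) of the 4 measured probes with 8 or more spots, with Pla2g4c siRNA cells (filled circles) left of control cells (open squares) for each gene and the mean as a line. For each of Itgb6, Lamc1, Itga1 and Itgb1 all spots of Pla2g4c siRNA cells lie above all spots of control cells, and the spots of 1 array are technical repeats of 1 RNA sample. Spots of the arrays also did not overlap, in either direction, for 78.0% of all 8109 named measured probes with at least 2 spots.

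The laminin chains lay on both sides of 0. Lamc1, with 5 GC boxes in its promoter, encodes the gamma1 chain found in most laminins of the body. It had a level of -0.54 in Pla2g4c siRNA cells and -1.21 in control cells, a difference of 0.67 ± 0.21 or 1.59-fold. Its 2 probes gave 0.64 over 8 spots and 0.70 over 2 spots, with no overlap of spots in either. It kept a positive sign under all 10 alternatives.

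Lamb3, a beta chain of epithelial basement membranes, differed by 0.03 ± 0.20, with a level of 3.59 in Pla2g4c siRNA cells and 3.56 in control cells and overlapping spots. Lamb2, a beta chain that assembles with gamma1, differed by -0.51 ± 0.20, with a level of -0.58 in Pla2g4c siRNA cells and -0.07 in control cells. Lama5, the alpha chain of laminin-511 and laminin-521, differed by -0.15 ± 0.20, with a level of 1.64 in Pla2g4c siRNA cells and 1.79 in control cells. Chains known to assemble into one trimer therefore had unlike differences. Lamc1 was at 0.67 and its partners Lamb2 and Lama5 at -0.51 and -0.15.

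Of the fibrillar collagens, which form the tensile fibres of connective tissue, 6 were measured, 4 above 0 and 2 below, with a median of 0.11. Col11a2, a chain of the minor fibrillar type XI collagen, had a level of -3.16 in Pla2g4c siRNA cells and -3.96 in control cells, a difference of 0.80 ± 0.22 or 1.74-fold. Its second probe passed the background flag only in Pla2g4c siRNA cells. It read 25.1 intensity units there and 12.1 in control cells, an uncertain difference of 0.71 ± 0.43. The measured probe read 124 intensity units in Pla2g4c siRNA cells and 54.6 in control cells, and the difference was 0.31 under normexp background correction.

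Col1a1, the main chain of type I collagen, differed by 0.13 ± 0.21, with a level of -1.74 in Pla2g4c siRNA cells and -1.87 in control cells. Its partner chain Col1a2 differed by -0.26 ± 0.28, with a level of -5.13 in Pla2g4c siRNA cells and -4.87 in control cells. Neither difference exceeded the software's error. Col5a1 and Col5a3 encode chains of type V collagen, which starts and limits the growth of type I fibrils. Col5a1 differed by 0.18 ± 0.20, with a level of 0.18 in Pla2g4c siRNA cells and 0.00 in control cells. Col5a3 differed by -0.52 ± 0.20, with a level of -0.999 in Pla2g4c siRNA cells and -0.48 in control cells. Col2a1, the cartilage collagen, had a low signal on both arrays, and its difference of 0.08 ± 0.31, with a level of -5.41 in Pla2g4c siRNA cells and -5.49 in control cells, turned to -0.23 under normexp.

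The 3 measured collagens outside the fibrillar group all lay below 0. Col18a1, a basement membrane collagen whose carboxyl end is cut off as endostatin, had a level of 2.99 in Pla2g4c siRNA cells and 3.79 in control cells, a difference of -0.81 ± 0.20 or 1.75-fold lower. It kept a negative sign under all 10 alternatives, between -0.81 and -0.26. Col7a1, which forms the anchoring fibrils that tie the epidermal basement membrane to the dermis, differed by -0.48 ± 0.20, with a level of -0.04 in Pla2g4c siRNA cells and 0.44 in control cells, from 1 spot per array. Col9a1, a collagen of the FACIT type that decorates cartilage fibrils, differed by -0.43 ± 0.23 on its 1 measured probe, also from 1 spot per array, with a level of -4.66 in Pla2g4c siRNA cells and -4.22 in control cells.

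The spots of a probe showed how far the printed repeats separate the arrays. Of the 23 measured probes of these genes with at least 2 spots per array, 18 had no overlap between the spots of the arrays, 10 of them higher and 8 lower in Pla2g4c siRNA cells. This share of 78.3% is close to the 78.0% over all 8109 named measured probes with at least 2 spots, so that these genes did not stand out by it.

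The other 21 genes were dim on both arrays, on all 26 of their probes. They comprised 9 collagens, 2 laminin chains, 7 integrin alpha and 3 integrin beta subunits, and their readings went up to 11.5 intensity units in Pla2g4c siRNA cells and 8.41 in control cells. Among them were Col3a1, a fibrillar collagen of stroma, Col4a1, a main chain of the basement membrane network, and Lama1, a laminin chain of early embryonic basement membranes. The subunits of leukocyte integrins also fell in this group, namely Itgb2, Itgal, Itgam, Itgad and Itgae. The summed signal of the probes of these 5 was 0.0233 times the array's 75th percentile in Pla2g4c siRNA cells and 0.0256 times in control cells.

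Markers of other cell types were set beside these levels. Of the mammary epithelial markers 10 of 13 were measured, including Krt5, Krt14, Krt7, Epcam and Cdh1, while Krt18, Cldn3 and Cldn7 were dim on both arrays. The 10 measured markers had a median difference of -0.31, with 3 above 0 and 7 below. The basal keratins Krt5, at -1.72, and Krt17, at -1.63, and the adhesion molecule Epcam, at 1.03, were past 2-fold, while Krt14 was at -0.97. Cdh1 was below 0, at -0.63, unlike Epcam, and Tp63 and Cldn4 were at -0.13 and 0.09. The luminal keratin Krt8 was at 0.86, whereas the keratins Krt7 and Krt19 were at -0.31 and -0.30. Krt8 had a low signal, at most 61.5 intensity units in Pla2g4c siRNA cells and 26.3 in control cells. Its difference went down to 0.11 under the processing alternatives. In multiples of the array's 75th percentile, the signal of the whole marker list summed to 335 in Pla2g4c siRNA cells and 761 in control cells. The probes of Krt5, Krt14 and Krt17 summed to 289 in Pla2g4c siRNA cells and 705 in control cells. Those of the other 10 markers summed to 46.0 in Pla2g4c siRNA cells and 56.2 in control cells. Such sums depend on the brightness and number of the probes, so each sum can be compared only between the arrays. The sums were computed with the main scaling only. Of 9 fibroblast and stromal markers Acta2 and Fbln1 were measured, Pdgfra passed the background flag only in Pla2g4c siRNA cells, and Pdgfrb, Dcn, Lum, Thy1, Fap and Postn were dim on both arrays. On the same scale their signal summed to 0.273 in Pla2g4c siRNA cells and 0.314 in control cells. Of 7 endothelial markers Cdh5 was measured, with Pecam1, Kdr and Tek dim, and the list summed to 0.0788 in Pla2g4c siRNA cells and 0.106 in control cells. Of 10 macrophage and leukocyte markers Cd68, Cd14, Csf1r and Lyz2 were measured and Ptprc was not, and the list summed to 0.792 in Pla2g4c siRNA cells and 0.972 in control cells. A larger share of a cell type and more RNA per cell cannot be told apart in such bulk RNA. The part of these markers in the differences of collagens, laminins and integrins was not tested.

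Genes that work with these families were described as lists. The lists share some genes, so their medians are not separate observations. Krt5, Krt14 and Cdh1 are also among the mammary epithelial markers, and Fbln1 among the stromal ones. Bcam stands among both the basement membrane partners and the receptors outside the integrins. Of the integrin ligands outside the families 7 of 16 were measured, with a median of -0.57, and 3 were past 2-fold, 2 higher and 1 lower. Over all 9026 named measured genes the share past 2-fold was 2.91% in the higher direction and 3.05% in the lower. Fibronectin, Fn1, the ligand shared by the alpha5beta1 and alphavbeta6 integrins, differed by 1.25 ± 0.22, with a level of 0.05 in Pla2g4c siRNA cells and -1.20 in control cells. Ccn1, a matrix protein that binds several integrins, differed by 1.21 ± 0.23, with a level of -2.87 in Pla2g4c siRNA cells and -4.08 in control cells. Tgfbi, a collagen-binding adhesion protein, differed by -1.59 ± 0.20, with a level of 2.04 in Pla2g4c siRNA cells and 3.63 in control cells. Tenascin-C, Tnc, followed at the low end with -0.83 ± 0.20.

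Of the integrin adaptors and kinases at the cytoplasmic face, 24 of 30 were measured, with a median of 0.10, 16 above 0 and 8 below. Fermt2, a kindlin that activates integrins together with talin, differed by 1.11 ± 0.21, with a level of -1.89 in Pla2g4c siRNA cells and -3.00 in control cells. Talin itself, Tln1, differed by 0.72 ± 0.20, with a level of 2.39 in Pla2g4c siRNA cells and 1.67 in control cells. At the other end Tns4, a tensin of epithelial cells that binds beta integrin tails, differed by -1.06 ± 0.20, with a level of 1.95 in Pla2g4c siRNA cells and 3.02 in control cells, and Bcar1, a scaffold of focal adhesions, by -0.49 ± 0.20.

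Of the partners of integrin alpha6beta4 in hemidesmosomes all 4 named on the array were measured, with a median of -0.83. Krt5 and Krt14, the keratin pair of basal cells, differed by -1.72 ± 0.20 and -0.97 ± 0.20, the linker plectin, Plec, by -0.70 ± 0.20, and the tetraspanin Cd151 by 0.16 ± 0.20. The basement membrane partners had a median of -0.49 over 5 of 8 genes. They ranged from Bcam, a receptor for laminin alpha5, at -0.88 ± 0.20, and Fbln1 at -0.50 ± 0.21, to Agrn at -0.11 ± 0.20 and Smoc2 at 0.59 ± 0.23. Of the collagen and laminin receptors outside the integrins 4 of 6 were measured, all below 0, with a median of -0.68. Beside Bcam these were the collagen uptake receptor Mrc2 (-0.69 ± 0.39), the collagen-binding kinase Ddr1 (-0.67 ± 0.25) and Rpsa (-0.32 ± 0.20), which is also a ribosomal protein. Mrc2 and Ddr1 had a low signal, at 16.4 and 41.7 intensity units in Pla2g4c siRNA cells and 20.5 and 51.1 in control cells.

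The enzymes and chaperones of collagen synthesis and crosslinking had a median of 0.08 over 16 of 20 genes, 9 above 0 and 7 below. P3h2, a prolyl 3-hydroxylase that acts on basement membrane collagen, differed by -1.40 ± 0.21, with a level of -3.43 in Pla2g4c siRNA cells and -2.03 in control cells. It alone of the 16 reached 2-fold, while of all 9026 genes 3.05% were at least 2-fold lower and 2.91% higher. The prolyl 4-hydroxylase subunits, which stabilise the triple helix, differed from each other. P4ha2 was at 0.73 ± 0.20, P4ha1 at -0.19 ± 0.20 and the shared beta subunit P4hb, which is also a disulfide isomerase, at -0.74 ± 0.20. P3h1, another prolyl 3-hydroxylase, was at 0.43 ± 0.23, and the collagen chaperone Serpinh1 at -0.29 ± 0.20.

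Several values of these lists moved with the processing. The authors' deposited values and spike-in scaling move all genes alike, by 0.13 and 0.55. Under the other 8 alternatives Fn1 went down to 0.85, Ccn1 to 0.54 and Fermt2 to 0.72, and Tns4 went up to -0.97, so that these 4 genes were not past 2-fold under each of them. Tgfbi, P3h2, Krt5, Krt17 and Epcam were, wherever they were measured. Krt5 went up to -1.19 under these alternatives, Krt17 to -1.09 and Krt14 to -0.47. The median of the hemidesmosome partners was -0.57 under cyclic loess and -0.56 under quantile normalization, and that of the basement membrane partners was -0.22 and -0.14. The median of the integrin ligands was -0.01 where only probes above the median signal were used. The median of the receptors outside the integrins was -0.43 under normexp. Under spike-in scaling these receptors were at -0.13 with 1 of 4 above 0, the hemidesmosome partners were at -0.29, the basement membrane partners at 0.06 and the integrin ligands at -0.02.

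The differences were recomputed under other processing choices. Under the 8 alternatives other than the deposited values and spike-in scaling, 19 of the 21 genes kept 1 sign, and Itgb6 was the only one of the 21 past 2-fold under each of them.

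**Figure D4:**
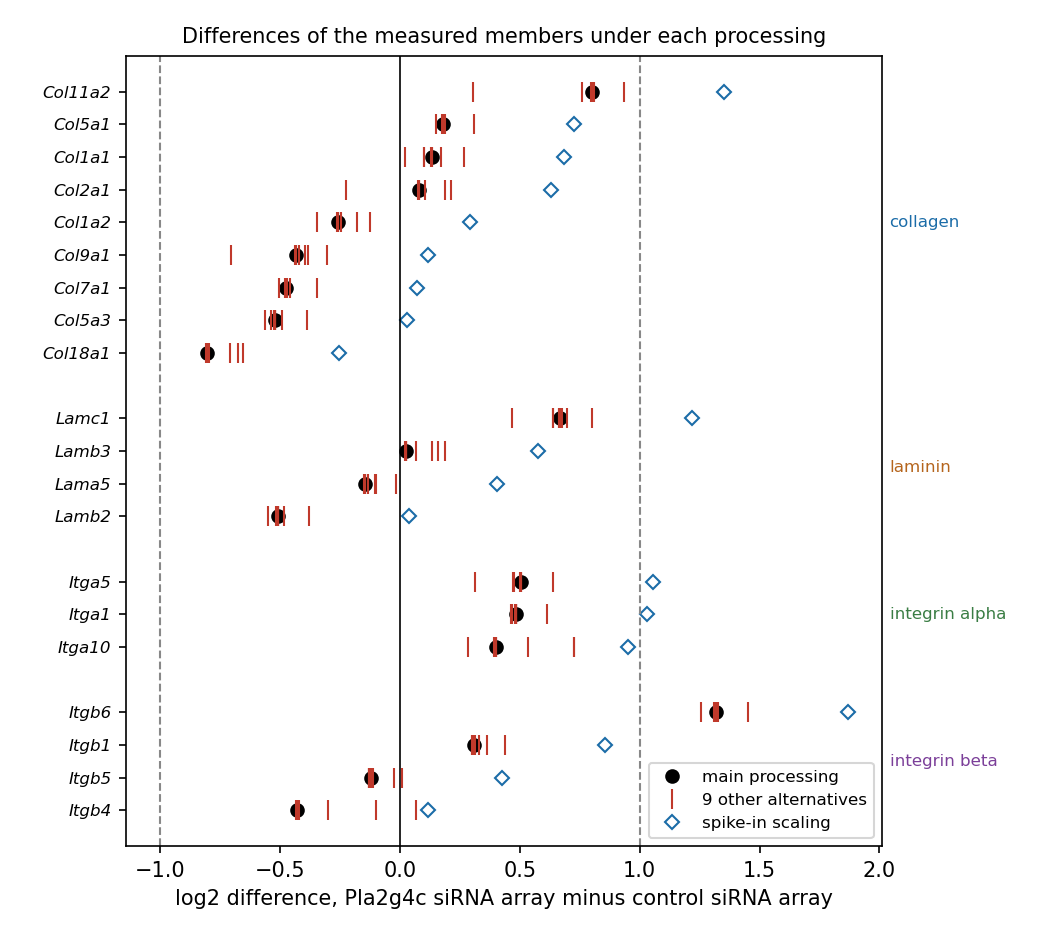
Difference of 20 of the 21 measured genes (Pla2g4c siRNA cells minus control cells, log2 scale, horizontal axis) under the main processing (black), under 9 alternatives (red ticks, fewer for some genes) and under spike-in scaling (open diamonds), with 2-fold as dashed lines. Itgb6 lies past 2-fold under each of them, spike-in scaling moves all genes upward by 0.55, and Itgb4 and Col2a1 change sign under an alternative that does not move all genes alike.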

How the data were processed

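RNA of RMT-1 cells was read on 1 one-colour Agilent rat array per group. The authors deposited spot intensities from Agilent Feature Extraction (version 10.10.1.1 per the file headers), background-subtracted and not normalized between arrays, with outlier and background flags. Both arrays lay on 1 slide. A deposited table of normalized intensities equals these signals times a constant per array.

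Here log2 signals were set relative to each array's 75th percentile, spots flagged as outliers were dropped, and spots, then measured probes of a gene, were averaged. Of 30367 probes 18006 (59.3%) were named by RefSeq accession. With 1 array per group no test was made, precision is limited by the number of arrays, and genes were counted at 2-fold. Members and lists were chosen with earlier results of these data known. Measured members are all named except 1, which is counted in the totals and not reported here, and of other lists genes past 2-fold and up to 2 at each end; 3 list symbols were not resolved.

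Alternatives were normexp (offset 50, spot medians), median scaling, quantile normalization, cyclic loess, the deposited values, the brightest probe, no filter on dim probes, only probes over the median signal, keeping flagged spots, and thresholds of 1.5-fold and 3-fold, and, added after the data were seen, spike-in scaling. Python 3.11.15, numpy 2.4.6, pandas 2.3.3, matplotlib 3.10.9, R 4.3.3 and limma 3.58.1 were used, tested on simulated data.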

Additional observations from a re-analysis of the deposited data

How the results depend on the processing

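Of 204 values of single genes under the 10 alternatives, 177 moved by less than the software's error and 27 by at least that, 21 of these under spike-in scaling. Apart from that scaling and the deposited values, which move all genes alike, 19 of the 21 genes kept their sign, and Col2a1 and Itgb4 did not. Without a filter on dim probes, which let in all 42 genes, the integrin alpha median was -0.022, while the median of all genes was -0.16. There 1 of the 42 genes, the dim Col9a2, was at least 2-fold lower, against 765 of all 15159 genes. Restricted to probes above the median signal, the collagen median was -0.50 over 4 genes. Spike-in scaling gave medians of 0.29 for collagens, 0.40 for laminins, 1.03 for integrin alpha, 0.64 for integrin beta and 0.58 for all 21 genes. Under it 5 of the 21 were at least 2-fold higher, against 1186 of all 9026 genes. At 1.5-fold 3 of the 21 genes were higher and 2 lower, against 784 higher and 929 lower of all 9026 genes. At 3-fold 0 of the 21 were higher. The cause of these shifts was not tested. No paired analysis was possible because each group has 1 array. No replicate could be left out. Signal near background limits Col11a2, Col1a2, Col2a1 and Col9a1 most.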
